A study of Mus musculus with 12 samples.

Results

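The interferon regulatory factor genes Irf1, Irf2, Irf3, Irf4, Irf5, Irf8 and Irf9, the signal transducer gene Stat2 and the type I interferon receptor genes Ifnar1 and Ifnar2 were followed through terminal erythroid differentiation. These 10 genes were chosen by their symbols among the 29838 genes of the expression table, and each symbol matched 1 gene. Type I interferons bind a receptor made of the chains IFNAR1 and IFNAR2. The receptor acts through the kinases TYK2 and JAK1, and STAT2 and IRF9 then act within the complex ISGF3, which binds interferon-stimulated response elements. IRF3, IRF5 and IRF7 act upstream and switch on interferon genes after sensing of foreign nucleic acid. IRF1 is an activator of interferon-stimulated genes and IRF2 largely a repressor, whereas IRF4 and IRF8 direct lymphoid, dendritic and myeloid cells, often on DNA together with the ETS factors PU.1 and SPIB.

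RNA was sequenced from wild-type bone marrow erythroblasts of male C57BL/6 mice aged 8 weeks, depleted of cells that carry CD45, CD11b or GR1. Proerythroblasts (Pro) were gated as CD44 high and Ter119 low, and basophilic (Baso), polychromatic (Poly) and orthochromatic (Ortho) erythroblasts were gated among Ter119 positive cells by CD44 and forward scatter. Each of the 4 stages had 3 libraries, all without treatment, and Pro was the reference. The sources do not say whether the 3 libraries came from separate mice or from pools, so the p-values measure the spread between these libraries. By cell type label, Ortho replicates 2 and 3 are only erythroblasts, and their titles place them in Ortho. Values are FPKM, fragments per kilobase of transcript scaled to the size of the library, and the depth behind them is unknown. A log2 fold change below is a difference between stage means of log2(FPKM + 1), which understates the change of low genes, and "past the threshold" is an adjusted p under 0.05 from limma over the 12994 genes tested.

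All 9 erythroid marker genes were detected, and the hemoglobin genes held 6.98% to 10.7% of the summed FPKM in Pro and 47.2% to 52.6% in Ortho. Markers of other blood cells were present in every stage, and most of their lists were higher in the later stages. The summed FPKM of 12 neutrophil markers was 7779 to 9490 in Pro, 13070 to 15333 in Baso, 16865 to 20064 in Poly and 15068 to 18766 in Ortho. For 11 B and plasma cell markers it was 86.6 to 134 in Pro and 249.7 to 280.3 in Ortho. For 12 macrophage and monocyte markers it was 41.9 to 54.6 in Pro and 112 to 129.9 in Ortho, with C1qb, C1qc, Mrc1, Marco and Siglec1 under an FPKM of 1 in all 12 libraries. For 8 dendritic cell markers it was 44.7 to 52.6 in Pro and 79.2 to 89.6 in Ortho, with Xcr1 under 1. For 8 T and NK cell markers it was 2.00 to 5.57 in Pro and 7.66 to 8.81 in Ortho. Of these, Cd3d, Cd3e, Cd3g, Cd8a and Ncr1 were under 1 in all 12 libraries. The 7 megakaryocyte and platelet markers went the other way, from 73.1 to 130.8 in Pro down to 40.2 to 48.9 in Ortho. The gate genes Ptprc (CD45) and Ly6g (GR1) were at 26.9 ± 3.34 and 21.4 ± 0.721 in Pro and at 57.5 ± 6.70 and 45.2 ± 4.22 in Ortho (SD, n = 3). In these bulk libraries, fewer cells of a type and less RNA per cell cannot be told apart. The libraries numbered 1 also stood apart. Among 27 tested target genes of ISGF3, 24 were highest in replicate 1 of the 3 Pro libraries, 24 in that of Baso, 26 in that of Poly and 27 in that of Ortho, whereas 36.6%, 30.6%, 38.4% and 42.1% of all genes tested were highest there.

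As deposited, 6 of the 10 genes were higher than Pro at Baso and at Poly, and 5 at Ortho. Both receptor chains, Irf4, Irf5 and Irf8 were higher in Baso, Poly and Ortho, Stat2 was higher in Baso and Poly, and Irf3 was lower in Ortho. All 10 genes passed the filter on low values. In Baso 6 genes were higher than in Pro and none was lower, while 14.9% of all genes tested were higher and 42.1% lower. In Poly 6 were again higher and none lower, against 23.3% and 42.7% of all genes. In Ortho 5 were higher and 1 was lower, against 22.7% and 53.2%. With a log2 fold change of at least 1 as well, there was no gene in Baso, Irf4 in Poly, and Irf4, Irf8 and Ifnar1 in Ortho, where 1.82%, 3.59% and 6.33% of all genes were higher by as much. The 3 comparisons share the Pro libraries.

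The level of the whole transcriptome shifted between stages on this scale. Compared with Pro, the 10 genes had median log2 fold changes of 0.32, 0.39 and 0.51 at Baso, Poly and Ortho, and all genes tested had medians of -0.23, -0.20 and -0.42. In each comparison 9 of the 10 genes lay above the median of all genes. When hemoglobin genes were removed and the rest rescaled per library, the medians of all genes were 0.03, 0.08 and -0.03, and those of the 10 genes 0.62, 0.71 and 0.98. On that scale 7 genes in Baso, 8 in Poly and 8 in Ortho were higher than in Pro and none was lower, where 27.0%, 35.5% and 34.3% of all genes were higher and 24.4%, 27.4% and 34.8% lower. After rescaling all libraries to 1 common sum, only Irf4 was higher and only Irf3 lower in Baso. In Ortho on that scale Irf4, Irf5, Irf8, Ifnar1 and Ifnar2 were higher, and Irf3, Irf2 and Stat2 were lower. Irf2 was at -0.43 and Stat2 at -0.27 (limma adjusted p = 0.00609 and 0.0455), where the median of all genes was -0.72. In Baso that median was -0.38. The share of all genes past the threshold on that scale is not given. Without the 4 libraries numbered 1, 3 genes were higher in Baso (Irf4, Ifnar1 and Ifnar2), 6 in Poly and 5 in Ortho, and Irf3 was lower in Poly and Ortho. The share of all genes in this smaller fit is not given, so these counts also carry the loss of libraries.

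**Figure D1:**
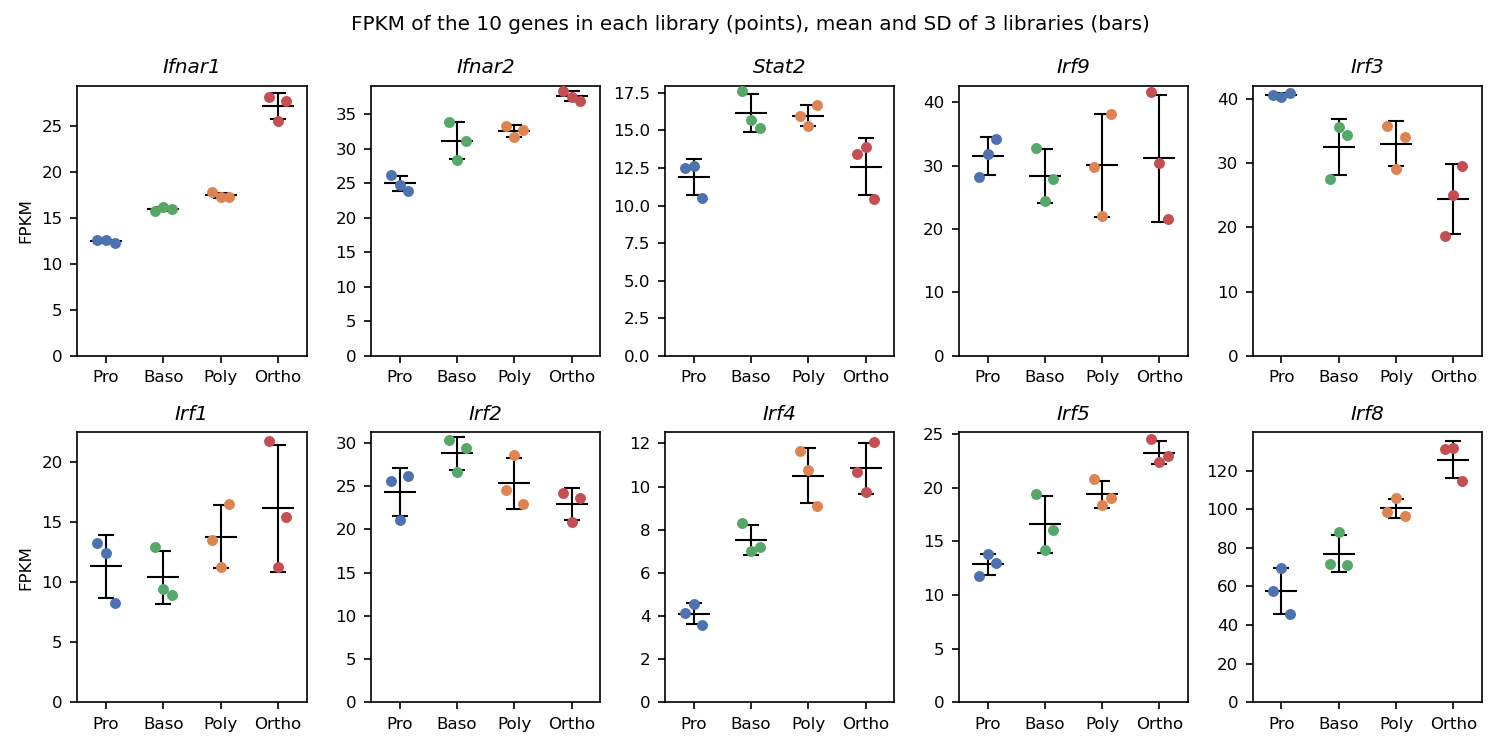
FPKM of each of the 10 genes (vertical axes, each from 0) by stage (horizontal axes); points are the 3 libraries of a stage and the black bars their mean and SD. Ifnar1 is tight in each stage and highest in Ortho, at 25.5 to 28.2, while the 3 Ortho libraries of Irf9 are spread from 21.6 to 41.5.

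**Figure D2:**
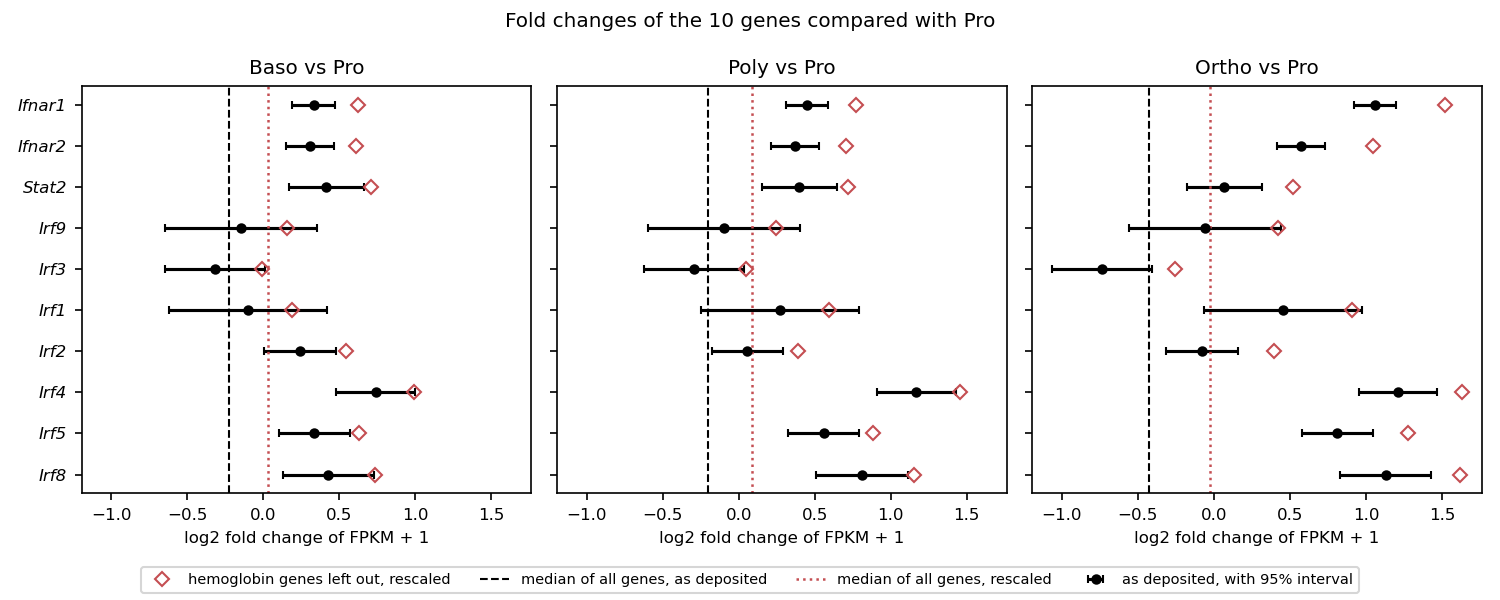
Log2 fold change of FPKM + 1 of each gene in Baso, Poly and Ortho compared with Pro; black points and bars are the values as deposited with their 95% intervals, red diamonds those without the hemoglobin genes, and vertical lines the medians of all genes tested. In Ortho, Irf4, Irf8 and Ifnar1 lie past 1, and Irf3 (-0.73) is the only gene below the median of all genes (-0.42).

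FPKM is scaled by length, so levels can be set side by side between genes. In Pro, Irf8 had the highest mean (57.6 ± 12.1), followed by Irf3 (40.5 ± 0.325), Irf9 (31.4 ± 3.01), Ifnar2 (25.0 ± 1.15) and Irf2 (24.3 ± 2.79), whose libraries overlapped those of Ifnar2. Irf5, Ifnar1, Stat2 and Irf1 came next, with overlapping libraries between 8.32 and 13.8, and Irf4 was last (4.11 ± 0.488; SD, n = 3). In Ortho, Irf8 was again first (126 ± 9.49) and no library of another of these genes came near it. Ifnar2 (37.6 ± 0.743), Irf9 (31.1 ± 9.98), Ifnar1 (27.2 ± 1.41), Irf3 (24.4 ± 5.51), Irf5 (23.3 ± 1.11), Irf2 (22.9 ± 1.84) and Irf1 (16.2 ± 5.31) followed. The 3 libraries of Irf9 ran from 21.6 to 41.5 and so overlapped each of the others in this list. Stat2 (12.6 ± 1.88) and Irf4 (10.8 ± 1.17) were last and overlapped. Irf8 in Ortho exceeded 96.8% of the genes tested, and Irf4 moved from above 29.7% of them in Pro to above 61.3% in Ortho.

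Ifnar1 encodes the receptor chain that binds TYK2. On mm10 its 11 exons span bases 91485238 to 91507441 of chromosome 16, on the plus strand. FPKM of Ifnar1 was 12.6, 12.6 and 12.3 in the Pro libraries, 15.7, 16.2 and 16.0 in Baso, 17.8, 17.3 and 17.3 in Poly and 28.2, 25.5 and 27.8 in Ortho, in the order of the replicate numbers. No library of one stage overlapped another stage. Against Pro, Baso stood 0.33 higher on the log2 scale (SE 0.06; limma, adjusted p = 0.00101), Poly 0.45 higher (adjusted p = 7.84e-05) and Ortho 1.06 higher (adjusted p = 5.9e-08). Poly and Baso differed by 0.12, short of the threshold (limma adjusted p = 0.228), while the step from Poly to Ortho was 0.61 (adjusted p = 1.86e-05). In that step 1 of the 10 genes was higher and 1 was lower, where 4.43% and 21.7% of all genes were. After rescaling to a common sum, the difference between Baso and Pro was 0.16 and fell short of the threshold (limma adjusted p = 0.0855).

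Ifnar2 encodes the chain that binds JAK1 and lies upstream of Ifnar1 on the same strand, from 91372783 to 91405589, with 9 exons. Its FPKM was 26.2, 24.8 and 23.9 in Pro, 33.9, 28.5 and 31.2 in Baso, 33.3, 31.7 and 32.7 in Poly and 38.4, 37.6 and 36.9 in Ortho. Every later library was above every Pro library, Baso and Poly overlapped, and Ortho lay above both. Log2 fold changes against Pro were 0.31 for Baso (SE 0.07; limma, adjusted p = 0.00384), 0.37 for Poly (adjusted p = 0.000858) and 0.57 for Ortho (adjusted p = 2.17e-05). Ortho exceeded Poly by 0.20, not past the threshold (limma adjusted p = 0.0632) but past it once the replicate number entered as a block, over all 12 libraries (adjusted p = 0.0473) or with Pro left out (adjusted p = 0.039). Rescaled to a common sum, the values in Baso (0.13) and Poly (0.20) were not past the threshold. The read-through gene Gm21970 shares 315 exonic bases with Ifnar2, and its FPKM was at most 1.24.

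Because the chains work as a pair, their ratio was taken within each library, where the scaling of the library has almost no part. The log2 ratio of Ifnar1 to Ifnar2 had means of -0.94 ± 0.05, -0.92 ± 0.14, -0.86 ± 0.02 and -0.46 ± 0.07 at Pro, Baso, Poly and Ortho (SD, n = 3). All 3 Ortho libraries lay above all 9 others, and the first 3 stages overlapped. As plain ratios of FPKM + 1 this was 0.520 in Pro and 0.729 in Ortho. All 15400 ways to divide the libraries among the 4 stages gave the exact permutation p (two-sided, 0.00981; Benjamini-Hochberg adjusted p = 0.0294 over 3 ratios). Without the libraries numbered 1 the difference between Ortho and Pro was 0.45, and the 8 libraries left gave an adjusted p of 0.229 in the same exact permutation test.

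**Figure D3:**
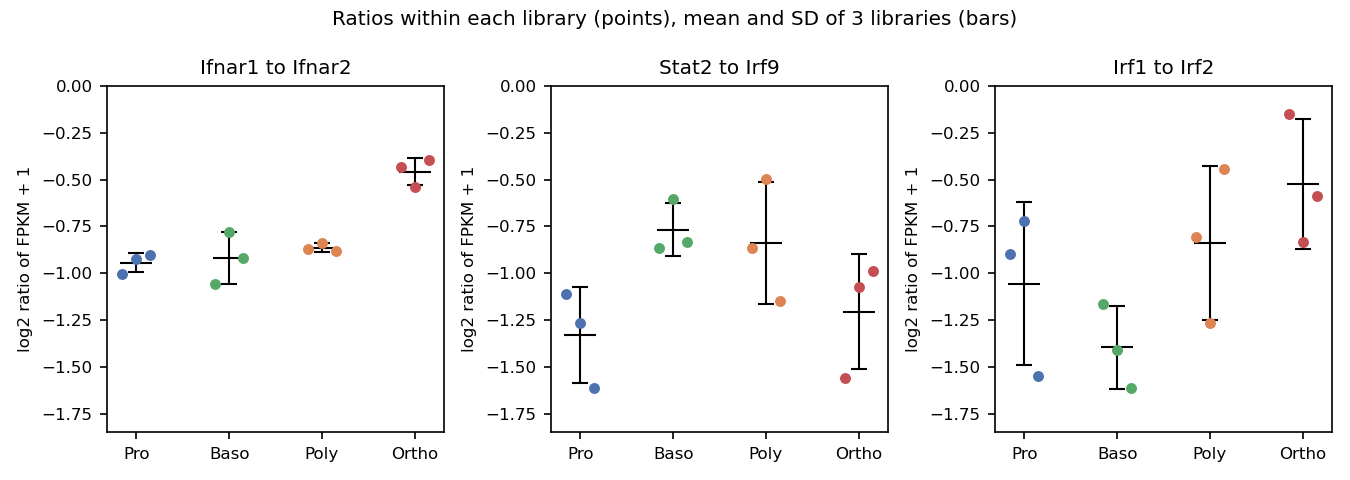
Log2 ratios of FPKM + 1 within each library (vertical axes) by stage for Ifnar1 to Ifnar2, Stat2 to Irf9 and Irf1 to Irf2; points are libraries, bars the mean and SD of 3. The Ortho libraries of Ifnar1 to Ifnar2 (-0.54 to -0.40) stand above all others, and the other ratios overlap between Pro and Ortho.

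The promoters of the receptor chains are shown because both transcripts, as deposited, were higher in every later stage than in Pro. They are RefSeq windows of 300 bases on GRCm38.p6, 250 before and 50 after the start of transcription, on the plus strand. Capitals mark matches to GAS (TTCNNNGAA, the same on both strands), an element bound by dimers of STAT proteins.
Ifnar1, chr16:91484965-91485264: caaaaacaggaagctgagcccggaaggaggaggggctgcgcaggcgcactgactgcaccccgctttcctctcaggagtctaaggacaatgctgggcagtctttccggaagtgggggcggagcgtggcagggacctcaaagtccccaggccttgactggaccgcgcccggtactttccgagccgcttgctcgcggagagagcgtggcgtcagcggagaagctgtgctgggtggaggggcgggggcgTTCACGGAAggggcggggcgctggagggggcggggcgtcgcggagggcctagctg
Ifnar2, chr16:91372533-91372832: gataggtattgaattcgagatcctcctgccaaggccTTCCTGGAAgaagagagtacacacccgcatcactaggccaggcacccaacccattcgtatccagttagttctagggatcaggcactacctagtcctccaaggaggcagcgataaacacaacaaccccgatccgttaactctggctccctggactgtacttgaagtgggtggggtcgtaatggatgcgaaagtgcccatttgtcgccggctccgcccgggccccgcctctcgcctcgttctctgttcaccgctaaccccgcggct
The match begins 5 bases before the start in Ifnar1 and 214 before it in Ifnar2. GAS letters were found in promoters of 5 of the 10 genes (Ifnar1, Ifnar2, Irf1, Irf2 and Irf8) and in 8.3% of 32851 promoters. The first counts genes with a match in any of their windows, 13 for the 10 genes, and the second counts single promoters. These matches are letters in a window, and binding was not measured. Irf4 and Irf5 were also higher in every later stage and held no match. Irf1 and Irf2 held a match and, as deposited, had no stage difference past the threshold.

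The receptor genes belong to a cluster of cytokine receptor genes on chromosome 16, in the order Ifnar2, Il10rb, Ifnar1 and Ifngr2. Il10rb, a shared chain of the interleukin-10 and interferon lambda receptors (91406164 to 91425834), was at 12.9 ± 0.477 FPKM in Pro and 21.1 ± 1.30 in Ortho (log2 fold change 0.66, limma adjusted p = 0.000893). Ifngr2, the second chain of the interferon gamma receptor (91547072 to 91565623), was at 7.30 ± 1.07 and 15.2 ± 0.443 (0.97, limma adjusted p = 4.09e-06). Both were named for their position after their values were seen. All 4 genes of the cluster were higher in Ortho than in Pro, where 22.7% of all genes tested were. In Baso, Il10rb was at 10.6 ± 2.65 FPKM, not past the threshold against Pro (log2 fold change -0.29, limma adjusted p = 0.0903). Of the 4 other interferon receptor chains on the list (Ifngr1, Ifngr2, Il10rb and Ifnlr1), none was past the threshold in Baso, 3 were higher in Poly and 4 in Ortho. Among all genes tested, 14.9% were higher in Baso and 23.3% in Poly. Ifngr1, the most abundant, rose from 35.9 ± 8.50 in Pro to 52.1 ± 1.80 in Ortho, by 0.55 on the log2 scale (limma adjusted p = 0.00366).

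Downstream of the receptor, Stat2 and Irf9 supply the parts of ISGF3 that are particular to type I and type III interferon. Stat2 has 24 exons between bases 128270559 and 128292849 of chromosome 10. Stat2 FPKM was 12.5, 12.7 and 10.5 in Pro, 17.6, 15.7 and 15.2 in Baso, 15.9, 15.3 and 16.7 in Poly and 13.4, 13.9 and 10.4 in Ortho. The Baso and Poly libraries lay above all Pro and all Ortho libraries, and Pro and Ortho overlapped. Relative to Pro, Stat2 rose by 0.41 on the log2 scale at Baso (SE 0.11; limma, adjusted p = 0.0082) and by 0.40 at Poly (adjusted p = 0.00815), and its Ortho value of 0.07 missed the threshold (adjusted p = 0.592, 95% interval -0.18 to 0.31). From Poly to Ortho it fell by 0.33 on the log2 scale (limma adjusted p = 0.0491), and in 10 of the 12 fits that left out 1 library this step was not past the threshold. The difference between Ortho and Pro depended on the scaling, being 0.52 without the hemoglobin genes (limma adjusted p = 0.00232) and -0.27 at a common sum (adjusted p = 0.0455). At a common sum Stat2 also fell short of the threshold in Baso (0.25, limma adjusted p = 0.0826) and Poly (0.23, adjusted p = 0.092). Stat2 in Baso was at 0.39 and not past the threshold without the libraries numbered 1 (limma adjusted p = 0.0643).

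The Stat2 promoter is shown because it holds the letters of the element that ISGF3 itself binds. The capitals cover a match to the response element core (ISRE, GAAA, any 2 bases, then GAAA again) and an overlapping match to the composite of ETS and IRF sites (GGAA, any 2 bases, then GAAA), both on the minus strand, which begin 222 and 216 bases before the start.
Stat2, chr10:128270248-128270547: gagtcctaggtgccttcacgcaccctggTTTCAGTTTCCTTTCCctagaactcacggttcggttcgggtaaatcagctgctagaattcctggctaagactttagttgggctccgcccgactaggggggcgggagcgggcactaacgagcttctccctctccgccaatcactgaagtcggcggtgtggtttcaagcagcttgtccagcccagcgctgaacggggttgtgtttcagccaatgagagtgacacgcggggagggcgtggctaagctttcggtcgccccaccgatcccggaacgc
Irf2 was the only other of the 10 genes with either motif, 241 and 247 bases before its start. Of all promoters, 3.44% held the ISRE core and 2.72% the composite on either strand. AGATAA, a form of the erythroid GATA motif, was found on either strand for Irf9 alone and in 11.2% of all promoters. Other forms of that motif were not searched for.

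Irf9, with 10 exons on chromosome 14 from 55603571 to 55610030, showed no difference past the threshold. Its FPKM was 28.3, 31.8 and 34.2 in Pro, 32.8, 24.4 and 27.9 in Baso, 29.8, 22.0 and 38.2 in Poly and 41.5, 30.3 and 21.6 in Ortho. The stages overlapped throughout, and the SD grew from 3.01 in Pro to 9.98 in Ortho. Its log2 fold change in Ortho compared with Pro was -0.06 (limma adjusted p = 0.831), with a 95% interval from -0.56 to 0.44. Irf9 shares 123 exonic bases with Rnf31 on the same strand, a gene that went from 15.2 FPKM in Pro to 9.16 in Ortho. The log2 ratio of Stat2 to Irf9 was -1.33 ± 0.26, -0.77 ± 0.14, -0.84 ± 0.33 and -1.21 ± 0.31 in Pro, Baso, Poly and Ortho (exact permutation p = 0.0925, adjusted p = 0.0982).

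The kinases of the receptor were compared as well, named for their roles after their values were seen. Jak1 was at 52.1 ± 0.897 FPKM in Pro and 48.6 ± 2.44 in Ortho, and Tyk2 at 13.4 ± 0.233 and 14.3 ± 0.812 (limma adjusted p = 0.222 and 0.33; SD, n = 3). In Baso, Tyk2 was lower than in Pro, at 9.81 ± 0.162 FPKM (log2 fold change -0.42, limma adjusted p = 0.000643). Without the hemoglobin genes both kinases were higher in Ortho, Jak1 by 0.38 and Tyk2 by 0.54 on the log2 scale (limma adjusted p = 0.000471 and 4.04e-05). Of 13 receptor kinases, STATs and brakes, 4 were higher and 3 lower in Baso than in Pro, 8 and 2 in Poly and 6 and 4 in Ortho. Among all genes tested, 14.9%, 23.3% and 22.7% were higher and 42.1%, 42.7% and 53.2% lower. The median log2 fold change in Ortho was 0.45 for the 13 genes and -0.42 for all genes. Stat4, which transmits interleukin-12 and interferon signals in lymphoid cells, was the gene of this list that passed a log2 fold change of 1 in any comparison, at 2.01 ± 0.00756 FPKM in Pro and 5.47 ± 0.184 in Poly (1.10).

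Target genes of ISGF3 were read from a list of 28 interferon-stimulated genes, of which 27 were tested. In Baso 9 were higher and 1 was lower than in Pro, in Poly 13 and 1, and in Ortho 15 and 1. Among all genes tested, 14.9%, 23.3% and 22.7% were higher and 42.1%, 42.7% and 53.2% lower. The targets had median log2 fold changes of 0.34, 0.56 and 0.69, and all genes tested -0.23, -0.20 and -0.42. Rsad2, which encodes the antiviral protein viperin, averaged 19.8 ± 4.04, 100.8 ± 30.3, 112 ± 18.8 and 330.2 ± 67.4 FPKM at Pro, Baso, Poly and Ortho (log2 fold change in Ortho 3.99, limma adjusted p = 3.61e-08). Isg15, a ubiquitin-like modifier, went from 29.0 ± 15.9 to 235 ± 38.9 (3.09, limma adjusted p = 4.99e-06). Oas3, an oligoadenylate synthetase, rose from 11.3 ± 2.84 to 34.5 ± 8.67, and Sp100, a nuclear body protein, from 32.5 ± 3.70 to 68.0 ± 11.0 (SD, n = 3). Ifit2 was the gene that fell, from 6.54 ± 0.510 to 2.32 ± 0.165, or -1.18 on the log2 scale (limma adjusted p = 6.89e-07), and was named after its value was seen. Without the libraries numbered 1, where these genes were highest, the counts in Ortho were 15 higher and 2 lower. The share of all genes in that fit is not given. The interferon genes themselves were hardly detected. Of 21 interferon genes 5 were in the table (Ifnb1, Ifnab, Ifnk, Ifnz and Ifng), and their highest FPKM in any library was 0.261, of Ifng.

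Irf3, the factor activated by cytosolic and endosomal sensing through TBK1, is a gene of 8 exons on chromosome 7, at 44997648 to 45002848. FPKM of Irf3 was 40.6, 40.2 and 40.8 in Pro, 27.5, 35.5 and 34.3 in Baso, 35.8, 29.1 and 34.1 in Poly and 18.6, 25.0 and 29.6 in Ortho. The Pro libraries lay close together and above all 9 later libraries, and Poly and Ortho overlapped. Against Pro it was -0.32 at Baso (log2 scale, SE 0.15; limma, adjusted p = 0.0886), -0.29 at Poly (adjusted p = 0.103) and -0.73 at Ortho (adjusted p = 0.00086). Irf3 was the one gene of the 10 below the median of all genes in each of these comparisons. Without the hemoglobin genes the Ortho value was -0.26, short of the threshold (limma adjusted p = 0.157). In the step from Poly to Ortho it was -0.44 (limma adjusted p = 0.051), with adjusted p = 0.0459 under the replicate block over all 12 libraries and 0.0613 under the block in Baso, Poly and Ortho alone. Irf3 shares 88 exonic bases with Bcl2l12 on the opposite strand, which went from 21.0 FPKM in Pro to 10.1 in Ortho, and the sources do not say whether fragments were counted by strand.

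Irf5, which acts downstream of Toll-like receptors in myeloid and B cells, has 9 exons at 29526625 to 29541871 of chromosome 6. The Irf5 libraries were at FPKM 11.8, 13.8 and 13.0 in Pro, 19.4, 14.2 and 16.1 in Baso, 20.8, 18.4 and 19.1 in Poly and 24.5, 22.4 and 22.9 in Ortho. Baso overlapped Poly, and Pro and Ortho stood apart from all other stages. On the log2 scale it exceeded Pro by 0.34 at Baso (SE 0.11; limma, adjusted p = 0.0188), by 0.56 at Poly (adjusted p = 0.000718) and by 0.81 at Ortho (adjusted p = 2.92e-05). The value in Baso was not past the threshold without Baso replicate 1 (0.22, limma adjusted p = 0.0777) or Pro replicate 1 (0.28, adjusted p = 0.0642), nor at a common sum (0.17). From Poly to Ortho it was 0.25, with a limma adjusted p of 0.114, of 0.113 with the replicate block over all 12 libraries and of 0.0349 with the block in Baso, Poly and Ortho. Irf5 shares 411 exonic bases with Tnpo3 on the opposite strand, which went from 25.4 FPKM in Pro to 14.2 in Ortho.

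Of the relatives of Irf3 and Irf5, Irf7, the interferon-induced amplifier of interferon genes, had an FPKM of 12.2 ± 1.14, 28.6 ± 4.13, 27.4 ± 9.99 and 31.9 ± 10.2 at the 4 stages, Pro first (log2 fold change in Ortho 1.27, limma adjusted p = 0.000563). Irf2bp1, which encodes a binding protein of IRF2, went down from 27.7 ± 5.39 to 12.8 ± 0.389, or -1.04 on the log2 scale (limma adjusted p = 1.35e-05). Of 16 tested genes of nucleic acid sensing, 4 were higher and 2 lower in Baso than in Pro, 7 and 1 in Poly, and 8 and 2 in Ortho. Among all genes tested, 14.9%, 23.3% and 22.7% were higher and 42.1%, 42.7% and 53.2% lower. Unc93b1, the chaperone of endosomal Toll-like receptors, rose from 69.7 ± 12.7 FPKM in Pro to 139.6 ± 8.39 in Ortho, and Tmem173, which encodes STING, from 5.98 ± 1.09 to 13.2 ± 0.978 (log2 fold changes 1.01 and 1.04, limma adjusted p = 6.77e-06 and 3.26e-05).

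Irf1 and Irf2 bind the same kind of element with mostly opposite effects. Irf1 has 10 exons on chromosome 11, from 53770014 to 53778374, and its FPKM was 13.3, 12.4 and 8.32 in Pro, 13.0, 9.41 and 8.94 in Baso, 13.6, 11.3 and 16.5 in Poly and 21.8, 11.2 and 15.4 in Ortho. All stages overlapped, and Ortho replicate 1 was the highest library. Irf1 shares 135 exonic bases with Gm17334 on the opposite strand. Its log2 fold change in Ortho was 0.46 (standard error 0.24, limma adjusted p = 0.101), with a 95% interval from -0.07 to 0.98. Removing the hemoglobin genes brought it past the threshold (0.91, limma adjusted p = 0.00493), as did leaving out Ortho replicate 2 (0.68, adjusted p = 0.0228).

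Irf2 has 9 exons and spans 46739732 to 46847458 on chromosome 8. In FPKM, its libraries were at 25.6, 21.1 and 26.2 in Pro, 30.3, 26.7 and 29.4 in Baso, 24.5, 28.6 and 22.9 in Poly and 24.2, 20.8 and 23.7 in Ortho. Baso lay above Pro and Ortho, and the other stages overlapped. As deposited, no difference of Irf2 was past the threshold (log2 fold changes compared with Pro of 0.24, 0.06 and -0.08, limma adjusted p = 0.0772, 0.655 and 0.524). Its direction in Ortho turned with the scaling, from -0.43 at a common sum (limma adjusted p = 0.00609) to 0.39 without the hemoglobin genes (adjusted p = 0.0052). Without those genes it was also past the threshold in Baso (0.54, limma adjusted p = 0.00119) and Poly (0.39, adjusted p = 0.00626). The log2 ratio of Irf1 to Irf2, which hardly depends on the scaling, had means of -1.06 ± 0.43, -1.40 ± 0.22, -0.84 ± 0.41 and -0.52 ± 0.35 in stage order (exact permutation p = 0.0982, adjusted p = 0.0982).

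As deposited, Irf4 and Irf8 had the highest fold changes of the 10 genes in Ortho. Irf4, known for its part in plasma cells, B cells and dendritic cells, lies on chromosome 13 between 30749226 and 30766976, with 9 exons. Irf4 FPKM was 4.16, 4.57 and 3.60 in Pro, 8.31, 7.03 and 7.19 in Baso, 11.6, 10.7 and 9.12 in Poly and 10.7, 9.75 and 12.1 in Ortho. Pro and Baso overlapped no other stage, and Poly and Ortho overlapped each other. Its log2 fold changes against Pro came to 0.74 for Baso (SE 0.12; limma, adjusted p = 0.000271), 1.17 for Poly (adjusted p = 6.31e-06) and 1.21 for Ortho (adjusted p = 2.32e-06). These 3 calls held in every alternative. The step from Baso to Poly was 0.43 (limma adjusted p = 0.0373), and Irf4 was the 1 of the 10 genes past the threshold there, where 6.58% of all genes were higher and 5.77% lower. Without Baso replicate 2, Baso replicate 3, Poly replicate 1, Poly replicate 2 or Ortho replicate 1 it was not, at 0.36 to 0.43.

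Irf8, a factor of monocyte, dendritic and B cell development, has 9 exons in the stretch from 120736358 to 120756694 of chromosome 8. Irf8 FPKM was 57.6, 69.7 and 45.6 in Pro, 71.7, 88.0 and 71.3 in Baso, 98.7, 106 and 96.7 in Poly and 131, 131 and 115 in Ortho. No 2 stages overlapped. Measured against Pro, Baso was up by 0.43 on the log2 scale (SE 0.14; limma, adjusted p = 0.0197), Poly by 0.81 (adjusted p = 0.000302) and Ortho by 1.13 (adjusted p = 1.48e-05). The value in Baso was not past the threshold without Pro replicate 3 (0.27, limma adjusted p = 0.0776) or Baso replicate 2 (0.33, adjusted p = 0.0816). Nor was it at a common sum (0.25, limma adjusted p = 0.125) or without the libraries numbered 1 (0.48, adjusted p = 0.0794). The same held without the filter on low values and in a fit of the 2 stages alone (limma adjusted p = 0.0618 and 0.0632). From Baso to Poly it was 0.38 and from Poly to Ortho 0.32 (limma adjusted p = 0.088 and 0.119), with adjusted p of 0.0293 and 0.0318 under the replicate block over all 12 libraries and of 0.00854 and 0.00765 under the block in Baso, Poly and Ortho.

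The Irf8 promoter is shown as the promoter of these genes with more than 1 GAS match. The matches, in capitals, begin 171 and 153 bases before the start.
Irf8, chr8:120736108-120736407: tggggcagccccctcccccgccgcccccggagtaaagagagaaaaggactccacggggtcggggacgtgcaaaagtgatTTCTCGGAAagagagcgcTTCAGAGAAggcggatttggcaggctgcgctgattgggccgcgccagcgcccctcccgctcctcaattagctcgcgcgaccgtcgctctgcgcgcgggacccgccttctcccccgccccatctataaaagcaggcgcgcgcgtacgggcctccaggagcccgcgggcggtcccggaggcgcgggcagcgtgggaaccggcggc

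The summed markers of neutrophils, B and plasma cells, macrophages and monocytes, dendritic cells, and T and NK cells moved in the same direction as Irf4, Irf5, Irf8 and the receptor chains, and those of megakaryocytes and platelets in the opposite one. As folds of the mean FPKM in Pro, Irf4 was at 1.83 in Baso, 2.56 in Poly and 2.64 in Ortho, and the summed B and plasma cell markers at 1.60, 2.45 and 2.52. Irf8 was at 1.34, 1.74 and 2.18, the macrophage and monocyte markers at 1.39, 1.87 and 2.52, and the dendritic cell markers at 1.12, 1.49 and 1.73. Irf5 was at 1.29, 1.51 and 1.81, Ifnar1 at 1.28, 1.40 and 2.17 and Ifnar2 at 1.25, 1.30 and 1.51. The neutrophil markers were at 1.65, 2.18 and 2.01, the T and NK cell markers at 1.58, 2.28 and 2.35 and the megakaryocyte and platelet markers at 0.750, 0.505 and 0.436. From Poly to Ortho, the sums of the macrophage and monocyte and of the dendritic cell markers were higher, as Ifnar1 was. That of the neutrophil markers was not, and those of B and plasma cells and of T and NK cells overlapped between Poly and Ortho. The summed erythroid markers, at 4.68, 4.86 and 7.41, were also higher in that step. Of these 9 erythroid genes, 3 were higher and 4 lower in Ortho than in Poly. For macrophages and monocytes, 3 of the 6 tested were higher and 0 lower. Without the libraries numbered 1, that was 1 higher and 1 lower. For dendritic cells, 0 of the 7 tested were higher and 1 lower. Among all genes tested, 4.43% were higher and 21.7% lower in that step. Of the marker genes tested, 11 of 12 for neutrophils, 11 of 11 for B and plasma cells, 4 of 6 for macrophages and monocytes, 5 of 7 for dendritic cells, 3 of 3 for T and NK cells and 1 of 7 for megakaryocytes and platelets were higher in Ortho than in Pro. In that comparison 22.7% of all genes tested were higher and 53.2% lower. Lower were 5 of the 7 for megakaryocytes and platelets and 1 on the dendritic cell list, Zbtb46. It went from 11.6 ± 1.58 FPKM to 0.839 ± 0.0277 (log2 scale -2.77, limma adjusted p = 5.4e-09). In Pro, Clec9a of the same list was at 0.705 ± 0.183 FPKM. Which cells carried Zbtb46 here was not tested. Zbtb46 was named after its value was seen, and its fall lowers the folds of the dendritic cell sum given above. The part of these cell types in the values of the 10 genes was not tested.

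**Figure D4:**
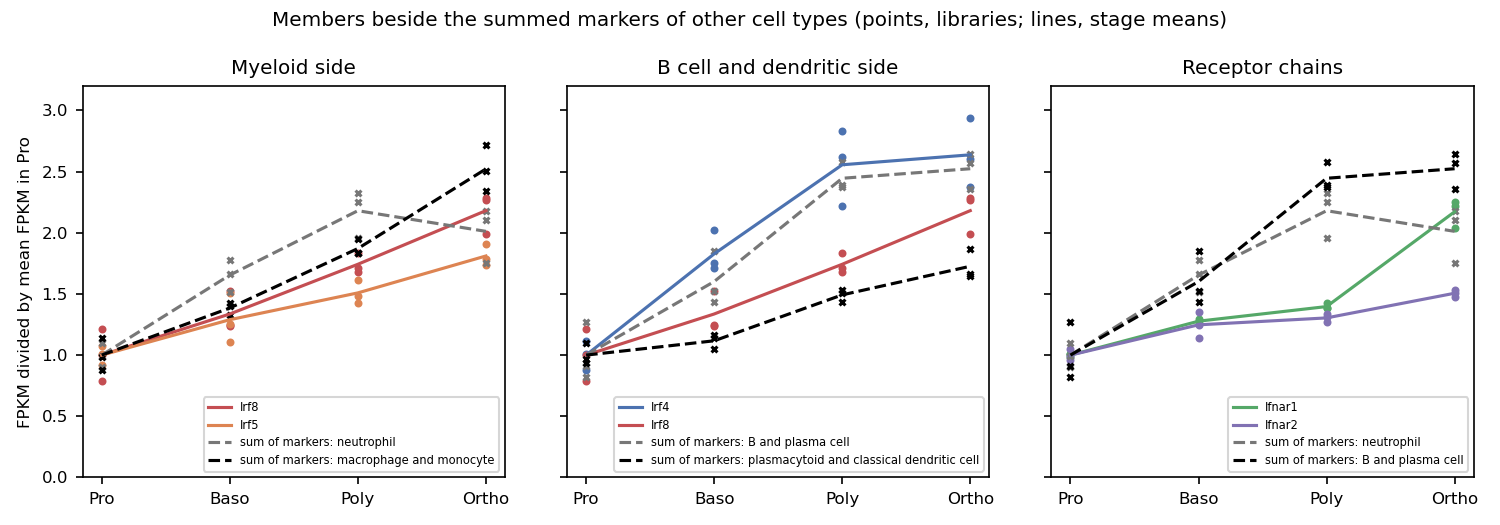
FPKM divided by the mean FPKM in Pro (vertical axis, from 0) by stage; solid lines and round points are single genes, dashed lines and crosses the summed markers of 4 of the other cell types, points being libraries and lines stage means. Irf4 runs beside the B and plasma cell markers, and Ifnar1 (2.17 in Ortho) and the macrophage and monocyte markers (2.52) rise from Poly to Ortho while the neutrophil markers do not. The summed erythroid markers, which also rise in that step (4.86 to 7.41), are not drawn.

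The DNA-binding partners of IRF4 and IRF8 were split. Of 6 tested, 4 were higher and 2 lower in Ortho than in Pro, where 22.7% and 53.2% of all genes tested were. Spib, an ETS factor of B and plasmacytoid dendritic cells, went from 16.2 ± 4.69 FPKM in Pro to 40.3 ± 1.06 in Ortho. Spi1, which encodes PU.1, went from 44.1 ± 2.82 to 85.9 ± 2.54 and was named after its value was seen. Ikzf1 (Ikaros) fell from 72.7 ± 2.98 to 30.8 ± 0.800 and Tcf3 (E2A) from 141 ± 10.2 to 60.6 ± 5.82 (log2 fold changes -1.21 and -1.20, limma adjusted p = 2.89e-08 and 1.27e-07).

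The genes most like each of the 10 were read from the Pearson correlation of log2(FPKM + 1) over the 12 libraries among 8355 genes with a mean FPKM of at least 5. These are descriptions over libraries that share 4 stages, with no test. Ifnar1 ran closest to Tcp11l2 (r = 0.994), at 14.0 FPKM in Pro and 249 in Ortho, and to Ube2b (r = 0.992), a ubiquitin-conjugating enzyme gene. Ifnar2 ran closest to Gda (0.986) and Mxd1 (0.985). Irf4 was nearest to Rin3 (0.990) and the cytokine receptor gene Csf2rb (0.984), Irf5 to Sept9 (0.977) and the complement gene C3 (0.975), and Irf8 to St8sia4 (0.984) and Sh3bgrl3 (0.981). Irf3 was nearest to Ppp1cc (0.925) and Golm1 (0.922), and Stat2 to Dusp8 (0.920) and Nprl3 (0.907). The genes with no stage difference past the threshold as deposited had lower best correlations, for Irf1 with Ighv1-72 (0.883), for Irf2 with Vbp1 (0.816) and Zdhhc14 (0.806) and for Irf9 with Tk2 (0.772) and Igkv5-39 (0.765).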

How the data were processed

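RNA-seq of 12 mouse libraries (4 stages, 3 each) was analysed from the table of FPKM that the authors deposited. Per the labels and methods, the authors trimmed reads with Cutadapt and Trimmomatic, aligned them to mm10 with HISAT2 and counted them with SAMtools and featureCounts; versions, annotation, strand setting and the tool behind the FPKM are not given in the sources used here. The labels name Trizol and NEBNext libraries, the methods Geek lysis and KAPA libraries. The table had 29839 lines and 29838 genes. Low FPKM showed no steps of whole fragments (at most 8.78% of log2 ratios in a bin), so depth is unknown and no counting error is given, and DESeq2, which the authors ran on counts, was not run.

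The test covered the 12994 genes that reached an FPKM of 1 in 3 or more libraries and used limma 3.58.1 (R 4.3.3), applied to log2(FPKM + 1), a pseudocount of 1, with all 12 libraries in one model with a variance trend, two-sided, with Benjamini-Hochberg adjustment. The fit was checked on simulated data. Ratios used exact permutation, which cannot give a p below 6.49e-05. In the authors' FPKM each transcript is a share of its library, so abundant hemoglobin lowers all other values. The alternatives were pseudocounts of 0.1 and 5, other filters, 3 scalings, no variance trend, 2-stage fits, replicate blocks and leaving out each library. Ortho replicate 1 alone and leaving out the libraries numbered 1 were added after the data were seen. The 10 genes and all lists were chosen with earlier results of these data known. Named from each other list were up to 4 genes past the threshold and a log2 fold change of 1 in any comparison, or else the most abundant one, the 3 most abundant markers of a list where used, and the 2 genes most like each of the 10.

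Libraries with the same number deviated together in Baso, Poly and Ortho (correlations of 0.156 to 0.319, every pair over 0.1) but not with Pro (0.00524 to 0.0968). The pairing rests on the values alone. Positions come from GENCODE M21 on mm10 and promoters from RefSeq on GRCm38.p6, which held 13 for the 10 genes. Figures were drawn with Python 3.11.15 and matplotlib 3.10.9. Results that need some genes are not reported here.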

Additional observations from a re-analysis of the deposited data

How the results depend on the processing

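FPKM depends on the other transcripts of a library, the depth is unknown and each stage has 3 libraries, which limits small differences most. Irf4, Irf5, Irf8, Ifnar1 and Ifnar2 in Ortho, and Irf4, Irf5, Irf8 and Ifnar1 in Poly, stayed higher than Pro and past the threshold in every alternative run. Over all comparisons, 500 of the gene values kept direction and call in the alternatives that did not leave out single libraries, 38 became and 27 ceased to be past the threshold and 25 changed sign. With 1 library left out these were 550, 11, 19 and 20. Where a count or sign below changed, the cause was not tested.

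After rescaling all libraries to 1 common sum, the count past the threshold in Baso compared with Pro fell from 6 to 2, the step from Baso to Poly from 1 to 0, and the count with a log2 fold change of 1 in Ortho from 3 to 1, which was then Irf3. Signs turned for Irf2 in Poly (-0.12), Stat2 in Ortho (-0.27), and Irf4 (-0.13) and Irf9 (-0.14) from Poly to Ortho. With hemoglobin genes left out the counts with a log2 fold change of 1 were 2 in Poly and 5 in Ortho, and 4 genes were past the threshold from Poly to Ortho. Signs turned for Irf1 (0.19) and Irf9 (0.16) in Baso, Irf3 (0.045) and Irf9 (0.24) in Poly, Irf2 (0.39) and Irf9 (0.42) in Ortho, Stat2 from Baso to Poly (0.017) and Irf2 from Poly to Ortho (0.0022). With median centring the counts with a log2 fold change of 1 were 1 in Baso and 2 in Poly, and the counts past the threshold 0 from Baso to Poly and 4 from Poly to Ortho. Signs turned for Irf1 (0.20) and Irf9 (0.15) in Baso, Irf9 in Poly (0.15), Irf2 (0.32) and Irf9 (0.34) in Ortho, Irf3 from Baso to Poly (-0.024) and Irf2 from Poly to Ortho (0.013).

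With a pseudocount of 5 the counts with a log2 fold change of 1 were 0 in Poly and 1 in Ortho. From Poly to Ortho the count was 1 without the filter, 4 at a mean FPKM of at least 5, 1 without the variance trend and 4 in the 2-stage fit. From Baso to Poly it was 0 without the filter. With the replicate block, in all 12 libraries or in Baso, Poly and Ortho alone, the counts were 2 from Baso to Poly and 5 from Poly to Ortho, and the block moved no count compared with Pro by over 1.5 times. Without the 4 libraries numbered 1 the counts were 3 in Baso, 0 from Baso to Poly and 1 from Poly to Ortho, and the ratio of Ifnar1 to Ifnar2 differed by 0.45, not past the threshold. Signs turned for Irf3 (-0.15) and Stat2 (0.047) from Baso to Poly and for Irf1 (-0.050) and Irf9 (-0.17) from Poly to Ortho. With Ortho replicate 1 alone, assumed to vary like the other stages, Irf2 (0.0032) and Irf9 (0.39) turned in Ortho.

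Leaving out each library in turn gave 0 to 2 genes from Baso to Poly and 1 to 3 from Poly to Ortho. The count from Baso to Poly was 0 without Baso replicate 2 or 3, Poly replicate 1 or 2 or Ortho replicate 1. The gene values that changed sign ranged from -0.29 to 0.016 for Irf1 in Baso, -0.037 to 0.12 for Irf2 and -0.28 to 0.10 for Irf9 in Poly, and -0.28 to 0.17 for Irf9 and -0.011 to 0.19 for Stat2 in Ortho. From Baso to Poly they ranged from -0.086 to 0.11 for Irf3, -0.13 to 0.25 for Irf9 and -0.056 to 0.045 for Stat2. From Poly to Ortho they ranged from -0.046 to 0.40 for Irf1, -0.047 to 0.11 for Irf4 and -0.19 to 0.27 for Irf9. The difference of the ratio of Stat2 to Irf9 between Ortho and Pro ranged from -0.016 to 0.30.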

Other observations

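The libraries numbered 1 differed from the others in the interferon response, in a way noticed after the values were seen and without a test. The summed FPKM of the 27 ISGF3 target genes tested was 459.6, 370.4 and 340.5 in Pro replicates 1, 2 and 3, 876, 591 and 639.9 in Baso, 871, 626 and 673 in Poly and 1328, 927 and 1052 in Ortho. Replicate 1 was thus highest in all 4 stages, and each later stage lay above Pro within every number. Of the 10 genes described above, 2 were highest in replicate 1 of Pro, 7 of Baso, 5 of Poly and 6 of Ortho, beside 36.6%, 30.6%, 38.4% and 42.1% of all genes tested. In Ortho, replicate 1 held the highest Irf1 (21.8), Irf9 (41.5) and Irf7 (42.7) and the lowest Irf3 (18.6). The labels give no reason for a difference between the numbers.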
